A study of Sus scrofa with 2 samples.

Results

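The knockdown-only sequences were 36 small RNA sequences that had at least 50 reads in the library of Dicer knockdown pig oocytes and no read in the control library. They were selected on the read counts of both libraries, on a length of 18 to 32 nt and on a GC content below 80%, out of 1166705 distinct sequences in the series. The 2 libraries came from Sus scrofa oocytes at metaphase II after 42 h of maturation in vitro, 1 labelled control and 1 labelled Dicer KD, in which siRNA against Dicer had been given at the germinal vesicle stage. The labels name no treatment of the control oocytes and say nothing of the number of oocytes or of pooled animals, and these tables hold no mRNA by which the knockdown could be checked. The control library held 11836160 reads and the knockdown library 11982925. With 1 library per group no test was possible, every difference below is between these libraries and not between the conditions, and all intervals are 95% intervals that cover counting error only, because the reads were amplified by PCR and carry no molecular identifier that would count molecules.

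Dicer cuts hairpins and long double-stranded RNA into miRNAs and siRNAs. Oocytes also carry piRNAs, which are made without Dicer, mostly start with U (written T here) and guard the germ line against transposons. SINE1 elements are tRNA-derived retroposons of the pig, and the title of the series names SINE1B as a target of endogenous siRNAs. Ribosomal RNA (rRNA) and Y RNAs, short noncoding partners of the Ro protein, give fragments of many lengths in small RNA libraries.

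The members carried few reads and were as many as their counterparts in the other library. Of 13473 knockdown sequences of the same length, read minimum and GC content, 36 were absent from the control library, which is 0.267%. With the libraries exchanged, 36 of 13730 control sequences were absent from the knockdown library, which is 0.262%. These shares follow from the rule and nothing is read from them. The members summed to 4672 reads, 0.0390% of the knockdown library (exact binomial interval 0.0379 to 0.0401%), against 9096 reads, 0.0768% (0.0753 to 0.0784%), for the control-only set. Single members had between 50 and 607 reads, with a median of 70.5. Against 0 control reads the lower bound of the exact interval was 162-fold for the most abundant member and 12.9-fold for a member at the minimum. The rule chose the members on these same counts, so the bounds describe the selection and are no test of a difference.

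The members fell into 22 families that share a run of at least 15 nt. SINE1 matches were computed against a consensus of 255 nt that was written from background knowledge after the members had been seen, with no reference at hand to check it, so every SINE1 name below rests on that consensus. The names of rRNA, Y RNA and miRNA families are background knowledge of vertebrate RNAs with no computed match, and no totals are given for them. Within 2 mismatches of the SINE1 consensus lay 8 members in 3 families, with 1652 reads or 35.4% of all member reads. The 3 families with most reads, named SINE1, 18S rRNA and 28S rRNA, held 60.5% of member reads, and 14 families had a single member.

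By first base and length the members differed from the sequences that both libraries held. Only 6 of the 36 members began with T, 16.7% (exact binomial interval 6.37 to 32.8%), against 80.2% of the 13437 sequences with at least 50 knockdown reads that were found in both libraries and 30 of the 36 control-only sequences. A began 12 members, C 10 and G 8. Of the 36 members 13 were 18 to 20 nt long, 36.1% (20.8 to 53.8%), against 5.58% of the shared sequences and 2 control-only sequences. Lengths of 21 to 23 nt, the size of Dicer products, were seen in 8 members, 22.2% (10.1 to 39.2%), in 30.2% of the shared sequences and in 19 control-only sequences. The median GC content was 60.4% for the members, 59.1% for the control-only set and 45.8% for the shared sequences. Members of 1 family share their source, so these intervals treat as independent what is not. In the control-only set 22 sequences belonged to 1 family, and without that family T began 10 of 14.

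The largest family, with 4 members and 1330 reads, was a sense fragment in the 3' part of SINE1, with 2 mismatches to the consensus. Its members are shown with the run they share in capitals.
SINE1 sense, 28 nt: acCCCTGGCCTGGGAACTTCCatatgcc
SINE1 sense, 21 nt: acCCCTGGCCTGGGAACTTCC
SINE1 sense, 26 nt: CCCTGGCCTGGGAACTTCCatatgcc
SINE1 sense, 20 nt: cCCCTGGCCTGGGAACTTCC

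The 28-nt form had 607 knockdown reads (exact Poisson interval 560 to 657), the 21-nt form 448 (407 to 491), the 26-nt form 171 and the 20-nt form 104, all against 0 control reads. The 4 forms use 3 neighbouring first bases and 2 last bases that lie 7 nt apart. A further form of 27 nt, which begins 1 nt after the 28-nt form and shares its last base, missed the rule by a single control read.
SINE1 sense, 27 nt, not a member: cccctggcctgggaacttccatatgcc
This form had 1 control and 509 knockdown reads. Along a run of 39 nt read from both libraries, reads that ended at the last base of the 28-nt form went from 1 to 1432, and those that ended at the last base of the 21-nt form from 2 to 646. Without the members the same ends had 654 and 94 knockdown reads. The 27-nt form made up 509 of the first, and a single form of 18 nt with 1 control read made up 87 of the second. Reads that began at the first base of the run, upstream of the members, were fewer in the knockdown library, with 29 control and 15 knockdown reads. Inside that run, without the members, there were 39 control and 968 knockdown reads, or 24.5-fold (17.8 to 34.7). The 27-nt form and that 18-nt form are among them. This run holds the members' own letters, so its fold shares the contrast that chose them and is given as a description. All other forms that share 15 nt with this family, which include variants with other letters beside the shared run, had 465 control and 1395 knockdown reads, or 2.96-fold (exact conditional interval 2.67 to 3.30). Reads of the run that share 15 nt are counted here too. The other forms with most control reads had fewer knockdown reads: 66 and 14, 18 and 7, 15 and 0, and 15 and 9. Those with most knockdown reads were the 27-nt and 18-nt forms above. Folds here and below are knockdown over control after scaling to library size.

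The antisense strand of SINE1 gave a smaller family of 2 members, again with 2 mismatches.
SINE1 antisense, 22 nt: agcaAGGGCAGGGACCGAACCC
SINE1 antisense, 24 nt: AGGGCAGGGACCGAACCCgcaacc

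They had 81 and 68 knockdown reads. This sequence was rare in the control library in every form: its other forms had 13 control and 201 knockdown reads, or 15.3-fold (8.73 to 29.2). Reads that began at the first base of the 22-nt member went from 0 to 114, and those that began at the first base of the 24-nt member from 0 to 88. Without the members these starts had 33 and 20 knockdown reads.

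A second sense family, toward the 5' end of SINE1, had a member of 21 nt with 107 reads and one of 18 nt with 66 reads. Their letters overlap the hand-written consensus and are not printed. The 18-nt member matched the consensus exactly and was the only one of the 36 that did. The 21-nt member differed from a control sequence by T1A, where the base of the control sequence is given first and positions count from 1 at the 5' end, and that relative had 28 reads in each library. Along the members' own run of 35 nt, without the members, there were 26 control and 388 knockdown reads, or 14.7-fold (9.91 to 22.9). That run likewise holds the members' letters, so its fold is given as a description. Among reads that match that run exactly, those that ended at the last base of both members went from 9 to 494, or 54.2-fold (28.3 to 119). They were 35.2-fold (18.3 to 77.7) without the members. The T1A relative ends at the same base but departs from the run, so its 28 reads in each library are not counted there. All forms that share 15 nt with the members, most of them variants with other letters, had 4301 control and 5439 knockdown reads, or 1.25-fold (1.20 to 1.30). Within 2 mismatches, SINE1 took in 8 of the 36 members, 22.2% (10.1 to 39.2%), 1 control-only sequence and 45 shared sequences, which is 0.335% of them (0.244 to 0.448%). The consensus was written with the members known, so these matches are not independent of them.

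Members from opposite strands did not pair with each other. An overlap of at least 17 nt with a reverse-complement sequence of the knockdown library was found for 6 members, all of them SINE1. Such partners were not particular to that library: in the control library 8 members had one, which are all the members named SINE1. For the 21-nt member of the 5' sense family the partners had 78 control and 110 knockdown reads. The 21-nt member of the 5' sense family was the 1 member with a partner that pairs with 3' overhangs of 2 nt, as in products of Dicer, and this partner had 1 control and 2 knockdown reads. Among the members themselves 0 pairs overlapped on opposite strands. Whether any member derives from the injected siRNA was not tested, and the siRNA's letters were not used here.

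The largest rRNA family was a stretch known from the 3' part of 18S rRNA, the RNA of the small ribosomal subunit. It had 5 members and 950 reads, and the capitals again mark the shared run, of 27 nt.
18S rRNA, 28 nt: GCCCTGGCGGAGCGCTGAGAAGACGGTc
18S rRNA, 29 nt: GCCCTGGCGGAGCGCTGAGAAGACGGTcg
18S rRNA, 30 nt: gGCCCTGGCGGAGCGCTGAGAAGACGGTcg
18S rRNA, 28 nt, shifted: gGCCCTGGCGGAGCGCTGAGAAGACGGT
18S rRNA, 30 nt, shifted: acgGCCCTGGCGGAGCGCTGAGAAGACGGT

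In the order shown they had 375, 266, 183, 65 and 61 knockdown reads. A form with 1 more base at the 5' end was present in the control library at a few reads: ggccctggcggagcgctgagaagacggtc had 4 control and 1824 knockdown reads, or 450.4-fold (175.6 to 1655). The other forms of this family together had 2547 control and 15795 knockdown reads, or 6.13-fold (5.87 to 6.39).

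Reads that ended where the members end were far more frequent in the knockdown library, in members and other forms alike. Reads that ended at the last base of the first 28-nt member went from 81 to 6031, or 73.5-fold (59.1 to 92.7), and without the members the ratio was 69.0 (55.4 to 87.0).

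A family known from 28S rRNA, the RNA of the large subunit, likewise had more knockdown reads at the members' own ends. It had 3 members, with 412, 85 and 51 reads in the order shown.
28S rRNA, 26 nt: cggGCCGCCGGTGAAATACCACTACt
28S rRNA, 22 nt: GCCGCCGGTGAAATACCACTAC
28S rRNA, 23 nt: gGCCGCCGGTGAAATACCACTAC

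Reads that ended at the last base of the 22-nt member went from 7 to 889, or 125-fold (60.6 to 313), and those that ended 1 nt later from 0 to 484. Without the members the ratio at the first of these ends was 106 (51.3 to 265), and the second had 72 knockdown reads, since the 26-nt member makes up the rest. Reads that ended 6 nt downstream of it were fewer in the knockdown library, with 171 and 102, or 0.589-fold (0.456 to 0.757). The control form that ran to this downstream end, ggccgccggtgaaataccactactctgat, had 125 control and 59 knockdown reads. The 23-nt member begins at the same base and stops 6 nt earlier.

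The 3 other families named as 28S rRNA, each with a single member, lay next to each other on 1 run of 44 nt that their overlaps of 8 and 14 nt give.
28S rRNA, joined run: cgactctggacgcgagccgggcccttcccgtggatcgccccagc
28S rRNA, 24 nt, first part: cgactctggacgcgagccgggccc
28S rRNA, 24 nt, middle: ccgggcccttcccgtggatcgccc
28S rRNA, 18 nt, last part: cccgtggatcgccccagc

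These members had 60, 188 and 165 knockdown reads. Reads other than the members counted over the joins were 49 control and 458 knockdown over the first and 7 and 521 over the second. Because the parts overlap, forms of a single part are counted too, so these totals do not show reads that link the parts. The form tcccgtggatcgccccagc, the last part with an added first base, had 366 knockdown reads. Forms that do link parts had fewer. The form ctggacgcgagccgggcccttcccgtggat, from the first part into the middle, had 23 control and 34 knockdown reads. The form agccgggcccttcccgtggatcgccccagc, with the middle and last parts whole, had 2 and 48. Without the members, reads inside the run numbered 100 in the control and 1088 in the knockdown library, or 10.7-fold (8.75 to 13.3). Both 24-nt members had a GC content of 79.2%, just under the limit of the rule, and the run as a whole 75%. The first part continued upstream into the 33-nt form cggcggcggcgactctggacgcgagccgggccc, outside the length window, with 34 control and 7462 knockdown reads.

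The 5.8S and 5S rRNA members were single-base variants of abundant sequences and differ from the fragments above in that their RNA was common in both libraries. In this and the next such lists the varied base is in capitals.
5.8S rRNA, 18 nt: Tcgtacgactcttagcgg
5S rRNA, 23 nt: ggaataccgggtgctgtaggGtt

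The 5.8S member, A1T relative to a control sequence with 2106 control and 1637 knockdown reads, had 103 reads. It made up 5.92% of the 2 forms in the knockdown library (4.86 to 7.13%), where a count of 0 in the control library allows up to 0.142% of the relative. The 5S member, C21G, had 55 reads beside 69350 knockdown reads of its relative, which had 36703 control reads. Its share of the pair was 0.0792% (0.0597 to 0.103%), and the floor in the control library lies at 0.00817%. Both members were chosen for their knockdown reads and for 0 control reads, so a share above the floor follows largely from the rule. At the same position of the 5S form, A was seen with 1 control and 61 knockdown reads and T with 2 and 17, so each of the 3 substitutions there had more reads in the knockdown library. The sum of all single substitutions of this 5S form was not higher, at 4.92% of its reads in the control and 4.52% in the knockdown library.

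The Y RNA members came from 3 ends of 2 Y RNAs that both libraries contained in quantity. They resemble the 5' and 3' ends of Y5 and the 3' end of Y4, the capitals marking the shared run where a family has 2 members.
Y5-like RNA, 5' end, 27 nt: agttggtccgaaggctgtgggttattg
Y5-like RNA, 3' end, 20 nt: CCCCACAACCACGTTTGACt
Y5-like RNA, 3' end, 19 nt: CCCCACAACCACGTTTGAC
Y4 RNA, 3' end, 22 nt: cccACTGCTAAATTTGACTGGC
Y4 RNA, 3' end, 19 nt: ACTGCTAAATTTGACTGGC

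Their reads were 60, 89, 50, 54 and 51. The other forms of all 3 ends were more frequent in the knockdown library. For the 5' end of Y5 they went from 569 to 4318 reads, or 7.50-fold (6.87 to 8.19). Other forms of the Y5 3' end had 11650 and 48688 reads, or 4.13-fold (4.05 to 4.21), and of the Y4 3' end 943 and 5249, or 5.50-fold (5.13 to 5.90). The member of the Y5 5' end is 1 nt longer than the form agttggtccgaaggctgtgggttatt, which had 57 control and 2285 knockdown reads, or 39.6-fold (30.5 to 52.4). The form 3 nt shorter than that, agttggtccgaaggctgtgggtt, was the most abundant in the control library, with 223 and 957 reads, or 4.24-fold (3.66 to 4.93).

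At the 3' end of Y5 the members were shorter than the leading form of both libraries. At that of Y4 they were shorter than the leading control form, of 27 nt with 262 control and 740 knockdown reads. The leading Y4 form of the knockdown library had 22 nt, like the longer member, with 205 control and 1400 knockdown reads. The leading Y5 form, cccccacaaccacgtttgactgactg, had 3442 control and 12617 knockdown reads, or 3.62-fold (3.49 to 3.76). Y5 reads that began 1 nt later than this form, at the first base of the members, went from 159 to 2830, or 17.6-fold (14.98 to 20.8). Y5 reads that ended at the last base of the 20-nt member went from 28 to 536, or 18.9-fold (12.9 to 28.7). Those that ended 1 nt later, where no member ends, went from 885 to 12193, or 13.6-fold (12.7 to 14.6). For Y4, the most used end in both libraries lay 2 nt before the last base of the members. Reads with that end went from 421 to 3403, or 7.98-fold (7.21 to 8.86), so the rise was not confined to the members' ends. Reads that ended 2 nt after the last base of the members went from 403 to 1244, or 3.05-fold (2.72 to 3.42). Those at the members' own last base went from 25 to 357, or 14.1-fold (9.40 to 22.1). Without the members this last ratio was 9.96 (6.59 to 15.7).

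The 1 miRNA among the members was miR-143, known from smooth muscle and stromal cells, in a 22-nt form with a final A. Its seed, bases 2 to 8, is in capitals in the first line, and the varied last base in the second.
miR-143, 21 nt, not a member: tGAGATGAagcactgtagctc
miR-143, 22 nt: tgagatgaagcactgtagctcA

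The form with A had 56 knockdown reads. The 22-nt form that ends in T had 43 control and 192 knockdown reads, and the one that ends in G 10 and 15. The 20-nt form had 123 and 602 reads and the 21-nt form 82 and 385, with ratios of 4.83 (3.98 to 5.92) and 4.64 (3.65 to 5.96). The A form is T22A relative to the form ending in T and made up 22.6% of that pair in the knockdown library (17.5 to 28.3%). The floor in the control library stands at 6.98% of the T form, and a share above it follows largely from the rule. No other member was named as a miRNA.

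Another 3 members that start with T, of piRNA size and unassigned, were single-base variants of sequences that both libraries held.
Variant A21C, 25 nt: tctgaaaaaaggacagaatgCactt
Variant G24T, 29 nt: tcctttctctaggctgtaggcttTtagcc
Variant C20A, 27 nt: tctagatgcagactggctaAtttgact

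They had 73, 54 and 53 knockdown reads. Their relatives had 28537, 998 and 7678 control reads and 33452, 1143 and 6578 knockdown reads. The share of the pair held by the variant was 0.218% (0.171 to 0.274%) for A21C, 4.51% (3.41 to 5.85%) for G24T and 0.799% (0.599 to 1.04%) for C20A. In the control library a count of 0 allows 0.0105%, 0.301% and 0.0391%, and shares above these floors follow largely from the rule. The varied bases lay between positions 20 and 24, in the last 8 bases of each sequence. G24T and C20A were the most frequent single substitutions of their relatives in the knockdown library, while 4 other substitutions outnumbered A21C.

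Over all 36 members, 9 had a control sequence of the same length at 1 mismatch, 25.0% (12.1 to 42.2%), against 90.7% of the shared sequences and 23 control-only sequences in the knockdown library. For 7 members that relative had at least 10 control reads, and these 7 included 5 of the 6 members that start with T. T began 1 of the other 29 members. A control form that differs by up to 3 nt at either end was found for 31 members, 86.1% (70.5 to 95.3%), against 99.8% of the shared sequences, and 4 members had neither kind of relative.

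Only 3 families had no control read in any form sharing 15 nt, and none of the 3 was given a name.
Unassigned, 19 nt: attccggttgttcttctct
Unassigned, 18 nt: agctgtgactctggggcc
Unassigned, 18 nt, second: agggtggaaagatggacg

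They had 76 (exact Poisson interval 59.9 to 95.1), 65 (50.2 to 82.8) and 64 (49.3 to 81.7) knockdown reads. Their other forms added 15, 21 and 1 knockdown reads, so the single member held most reads of each family. None had a reverse-complement partner. Another unassigned member, aaagcgtcgcggttccggcg, had 102 reads, and its other forms 91 control and 1507 knockdown reads, or 16.4-fold (13.2 to 20.4). The last unassigned family had 2 members, with 54 and 50 reads, and 1097 control and 1623 knockdown reads in other forms, or 1.46-fold (1.35 to 1.58). Its letters resemble a bacterial rRNA, by background knowledge and with no match computed, and are not printed.

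For the other 19 families the control library held forms that share 15 nt with a member, variants included, and the knockdown to control ratio of those forms ranged from 0.767 to 36.6, with a median of 4.13. It was at least 2-fold in 12 families, all of them named as rRNA, SINE1, Y RNA or miR-143 except for the unassigned aaagcgtcgcggttccggcg. That family was only left without a name, and whether it belongs to 1 of these classes was not tested. It was below 2-fold in 7 families, which are the 5' SINE1 sense family, the 5.8S and 5S variants, the 3 variants of piRNA size and the family not printed. For the 5' SINE1 sense family this is the value over variants, while its own run was 14.7-fold without the members. The lowest value, 0.767 (0.757 to 0.778), was that of the C20A variant, with 48021 control and 37291 knockdown reads in other forms. These ratios share the contrast that chose the members and are given as a description.

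The read minimum and the absence from the control library both cut through closely spaced values. There were 8 members with 50 to 54 reads and 2 sequences with 45 to 49 reads that the minimum left out, the higher at 47. A further 15 sequences met every condition except for a single control read, and the highest of them was the 27-nt SINE1 form with 509 knockdown reads.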

How the data were processed

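The authors deposited 1 table per library with the length, the raw read count and the letters of each distinct sequence. Libraries were made by adapter ligation, reverse transcription and PCR, per the labels' protocols. The submitters' processing notes name Bowtie2. Its version and role, the genome build and the trimming: not given in the sources used here. No genome was used, so no sequence was placed on a chromosome.

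Families were joined by single linkage on same-strand runs of 15 nt. Other forms are all sequences of either table that share such a run with a member, and 1 sequence can count for several families. Extended runs took, base by base, the letter with most reads. Read ends were tallied over reads that match such a run exactly. The runs hold the members' letters, so folds along them and at their ends share the contrast that chose the members. Intervals are exact: Clopper-Pearson for shares, Poisson for reads, conditional for folds. Shares quoted as allowed by absence use a floor of 3 reads per library.

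The members and lists were chosen with earlier results of these data known. The design allowed class values only from a supplied reference. The SINE1 consensus departs from that: none was supplied, and it was written from background knowledge after the members had been seen. It matched 342 distinct sequences exactly, which does not show that each of its letters is right. The tallies of read ends, the joined run, the comparisons of substitutions and the class names were also added after seeing the data.

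The naming rule took the most abundant member of the 10 families with most reads, the 5 most abundant members, the 5 with the most abundant 1-mismatch relatives, SINE1 matches and members near the read minimum. Other sequences shown were chosen after their values were seen, and 1 other form is not reported here. The script's grouping, relatives and intervals were tested on simulated data. Python 3.11.15, numpy 2.4.6 and scipy 1.17.1 were used.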

Additional observations from a re-analysis of the deposited data

Results flagged for a closer look

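Sequences with a GC content of at least 80% are left out by the rule. Of 135 such knockdown sequences of 18 to 32 nt with at least 50 reads, 27 had 0 control reads, which is 20% (exact binomial interval 13.6 to 27.7%), against 1 of 10 control sequences absent from the knockdown library, 10% (0.253 to 44.5%). These intervals overlap. The 27 sequences held 3155 reads, were chosen on both libraries' reads and are given as a description. Among sequences of 33 to 44 nt, 0 met the read minimum in either library while absent from the other.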

How the results depend on the processing

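The number of members followed the limits of the rule. It was 13 with a read minimum of 100, 136 with 20, 63 with no limit on GC content and 17 with GC content below 60%. Lengths of 21 to 23 nt alone held 8 members and lengths of 24 to 32 nt 15, and with at most 1 control read there were 51. Families numbered 8 and 77 under the read minimums of 100 and 20 and 37 with no limit on GC content, against 21 or 22 when the shared run or strand was changed. The share that starts with T stayed between 7.69% and 30.1% under every alternative run. Shared sequences stood at 80.2% under the main rule, and their share is not given here for the other read minimums or GC limits. The share with a control form of other ends was 100% with a read minimum of 100. Members with a reverse-complement partner rose from 6 to 11 with an overlap of 15 nt, and SINE1 matches from 1 exact to 8 with up to 2 mismatches, as the wider definitions take in more sequences. Of all alternatives, 19 moved values by less than 1.5 times or within the counting interval, some of them given above. With 1 library per group, leaving out a replicate could not be tried. Depth limits absence: 0 control reads allow up to 3 reads of a member in a library of this size.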
